A study of Homo sapiens with 14 samples.

Results

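The NDRG family (N-myc downstream-regulated genes) was followed gene by gene through polyadenylated RNA-seq of 2 cancer cell lines kept in normoxia or hypoxia. Its 4 members, NDRG1, NDRG2, NDRG3 and NDRG4, were taken by gene symbol from 23106 symbols in the count files, and all 4 were found there. PC3 is a line from a prostate carcinoma and HCT116 a line from a colorectal carcinoma. The culture medium was DMEM/Hams F12 for PC3 and McCoy's 5a for HCT116, each with serum and antibiotics. Both lines were unmodified, and no drug or transgene was used. The normoxia groups were kept at 21% O2 and the hypoxia groups were moved to 0.5% O2 for 16 h, with 4 biological replicates per group in PC3 and 3 in HCT116. Line and medium changed together in these samples, so a difference between the lines cannot be told apart from one between the media. The family was chosen with the rise of NDRG1 in hypoxia known. The hypoxia values of NDRG1 are therefore given as a description, without a p-value. Among the members, the tests concern NDRG2, NDRG3, NDRG4 and the level of NDRG1 in normoxia. The lists of other genes were also chosen with earlier results of these data known.

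NDRG proteins share the fold of the alpha/beta hydrolases but lack the catalytic residues of these enzymes. The founding member was named for its repression by N-myc, and NDRG1 is also a widely used marker of the hypoxia-inducible factor (HIF) response, which is held down in oxygenated cells by prolyl hydroxylases and the VHL ubiquitin ligase. In prostate and colorectal cancer NDRG1 is known as a suppressor of metastasis, and the kinases SGK1 and GSK3 phosphorylate its protein. NDRG2 is a candidate tumour suppressor that is abundant in brain and often silenced in tumours, NDRG3 is known as a protein whose stability depends on oxygen and lactate, and NDRG4 is best known from heart, brain and the methylation of its promoter in colorectal cancer.

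The RefSeq promoter table (GRCh38.p14, 250 bases before to 50 after each start) held NDRG2, with 5 starts, and NDRG4, with 4. Each window was searched on both strands for the 5-base core of the HIF binding motif, ACGTG or GCGTG, which 48.4% of the 35116 promoters in the table hold. The matching stretches are shown so that the sequence context of the members without a large hypoxia response can be read beside their counts. The capitals mark the core, which reads CACGC where the match is on the other strand. The NDRG2 stretches, both on the minus strand and before the start, lie at chr14:21025163-21025192 and chr14:21071010-21071039, and the first of them is shared by 2 neighbouring starts.
NDRG2 first stretch: gtgaaaggggggGCGTGtttactgggggtc
NDRG2 second stretch: ctctggcagtgtCACGCcccctggtactgt
The first NDRG4 promoter held 4 matches, all on the other strand. The stretches are printed from the plus strand, at chr16:58463540-58463569, chr16:58463624-58463653, chr16:58463632-58463661 and chr16:58463686-58463715, of which the last overlaps the start itself.
NDRG4 first stretch: gaaggcggaagcCACGCgcgagggaccgcg
NDRG4 second stretch: acccgccaaaccCACGCgggcacgcccccg
NDRG4 next stretch: aacccacgcgggCACGCccccgcggcgcac
NDRG4 last stretch: tgcagccgcgggCACGCggaggggctcctg
The NDRG4 stretches in the middle overlap. The other 3 NDRG4 promoters and 2 of the NDRG2 promoters held no match, and none of the 9 windows held the E-box CACGTG, the letters bound by MYC and MAX, which 7.26% of all promoters hold. The first NDRG4 promoter was also rich in CpG, with 49 in 300.0 bases, more than in 98.4% of the promoters in the table, and the NDRG2 promoters held between 4 and 27. A match to these letters is a description of the window and not evidence of binding.

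Gene models on GRCh37 placed the members on 4 chromosomes. NDRG1 lies at chr8:134249418-134314265 on the minus strand, NDRG2 at chr14:21484922-21539031 on the minus strand, NDRG3 at chr20:35280169-35374493 on the minus strand and NDRG4 at chr16:58496750-58547532 on the plus strand. The NDRG2 locus is the most crowded. It is overlapped on the opposite strand by TPPP2, RNASE7, RNASE8 and, over 600 bases, ARHGEF40, and on its own strand by RNASE13. TPPP2, RNASE8 and RNASE13 had 0 counts in all 14 libraries and RNASE7 had 7 in total, while ARHGEF40 had 6480. The strandedness of the counting is not given in the sources used here, so reads from the shared stretch could not be assigned to one gene or the other.

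Library totals ran from 98021966 to 123935458 counts in normoxic PC3, from 71228454 to 96159803 in hypoxic PC3, from 136931675 to 147934177 in normoxic HCT116 and from 133067391 to 150630928 in hypoxic HCT116. All hypoxic PC3 libraries were thus shallower than the normoxic ones. Every pair of replicates differed by more than counting error, and a principal component of the PC3 libraries with 36.2% of their variance set both libraries numbered 1 (scores of 16.8 and 29.3) apart from the rest (-16.0 to 3.13). Epithelial keratin 8 and 18 and EPCAM were abundant in both lines. The intestinal factor CDX2 was at 17.6 CPM (read counts scaled to library size, with TMM factors) in normoxic HCT116 and at 0 counts in PC3. The androgen target KLK3 had 0 counts in every library, and the intestinal genes CDH17 and VIL1 were at or near 0 in HCT116 as well as in PC3, so these markers of the labelled tissues were absent. Of 3 markers of other cell types, the leukocyte gene PTPRC and the endothelial gene PECAM1 were higher in PC3 than in HCT116 and the fibroblast collagen COL1A1 stood at 8.38 against 10.6 CPM in normoxia. Their summed level was 8.66 to 14.01 CPM in normoxic PC3, 9.08 to 12.5 CPM in normoxic HCT116, 8.27 to 10.6 CPM in hypoxic PC3 and 8.41 to 10.2 CPM in hypoxic HCT116, and PTPRC was at 0 counts in normoxic HCT116. Their part in the results was not tested.

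NDRG1 was the member with the large hypoxia response in both lines. In PC3 it stood at 426, 293, 276 and 388 CPM in the 4 normoxic libraries and at 1906, 2737, 2077 and 3409 CPM in the 4 hypoxic ones. In HCT116 it stood at 72.2, 76.9 and 82.0 CPM in normoxia and at 406, 647 and 516 CPM in hypoxia. The groups did not overlap in either line, as was so for 20.9% of all genes in PC3 and 42.5% in HCT116. The lowest hypoxic HCT116 library was about level with the highest normoxic PC3 libraries. The mean went from 345.8 ± 72.6 to 2532 ± 685 CPM in PC3 (SD, n = 4) and from 77.0 ± 4.88 to 523 ± 121 CPM in HCT116 (SD, n = 3). Because these are bulk samples, a rise in RNA per cell and a shift in the share of cells that make the RNA cannot be told apart.

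The log2 fold change of NDRG1 between hypoxia and normoxia was 2.87 in PC3 (SE 0.22, 95% interval 2.39 to 3.36), a 7.33-fold difference, and 2.78 in HCT116 (SE 0.14, 95% interval 2.47 to 3.09), a 6.86-fold difference. It was the 6th highest of 14309 genes in PC3 and the 23rd highest of 14120 in HCT116. These ranks restate what led to the choice of the family and are given as its scale. With libraries taken by number, the ratio of hypoxic to normoxic CPM was 4.47, 9.34, 7.52 and 8.79 in PC3 and 5.62, 8.42 and 6.29 in HCT116. The lowest of the PC3 ratios came from the number 1 libraries, in which normoxic NDRG1 was at its highest and hypoxic NDRG1 at its lowest. The difference between the lines in the log2 change of NDRG1 was 0.11 (SE 0.29), with a 95% interval from -0.50 to 0.72. That interval holds both a smaller and a larger response in PC3, and the sign turned in 2 of the 14 fits that left out 1 library (range -0.07 to 0.30).

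**Figure D1:**
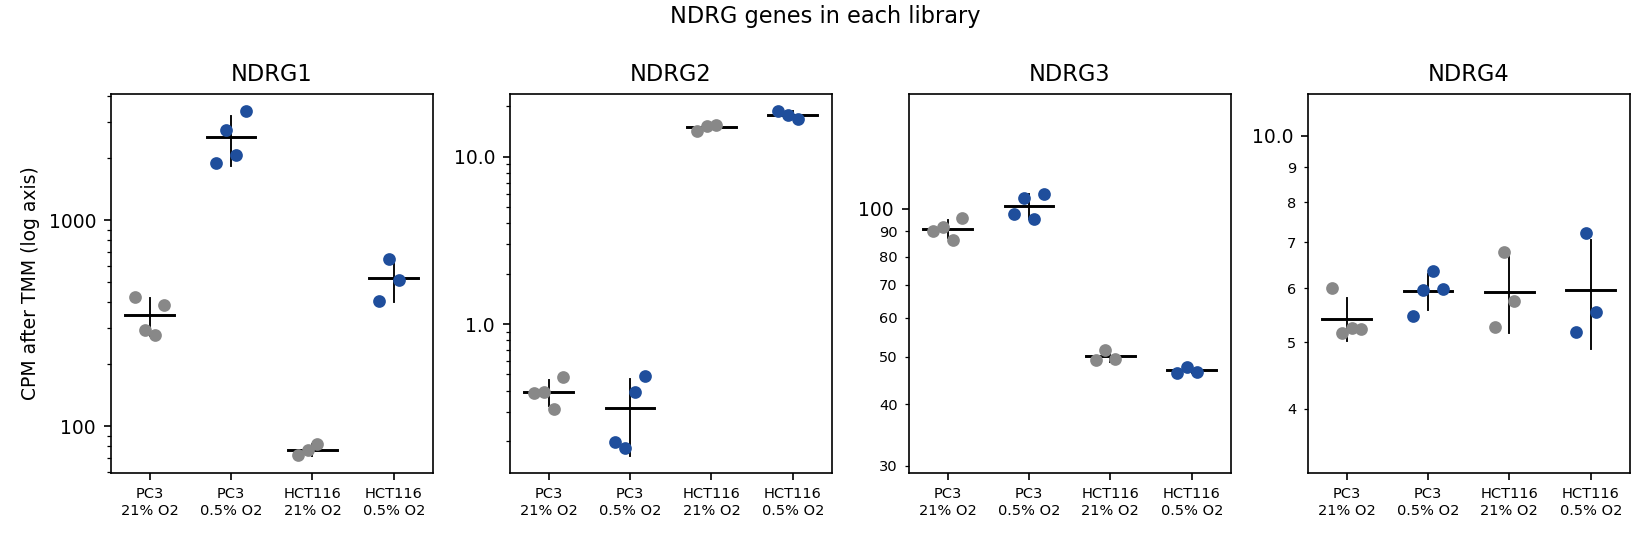
CPM of each NDRG gene in each of the 14 libraries, on log axes whose ranges differ between panels. Grey points are normoxic (21% O2) and blue points hypoxic (0.5% O2) libraries, the horizontal line is the group mean and the vertical line the SD (n = 4 in PC3, n = 3 in HCT116). NDRG1 is higher in every hypoxic than in every normoxic library of its line, while NDRG2 and NDRG3 are set apart mainly by line and NDRG4 lies between 5.16 and 7.21 CPM throughout.

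The lines also differed in NDRG1 in the presence of oxygen. The 4 normoxic PC3 libraries (276 to 426 CPM) all lay above the 3 normoxic HCT116 libraries (72.2 to 82.0 CPM). The level was 4.43-fold higher in PC3, a log2 difference of 2.15 (SE 0.16, adjusted p = 9.57e-07). Here and elsewhere p-values came from the quasi-likelihood test of edgeR and were adjusted over all genes after Benjamini and Hochberg. At hypoxia the log2 difference was 2.28 (SE 0.24). These lines differed at most genes. Of 15206 genes tested at normoxia, 83.4% passed the same threshold, an adjusted p under 0.05, so that 3 of 4 members passing (NDRG1, NDRG2 and NDRG3) was close to what the whole table showed. At hypoxia 2 of the 3 members tested (NDRG2 and NDRG3) passed, with 78.7% of all genes.

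NDRG2 carried the largest difference between the lines. PC3 held almost none of it, with 46, 51, 32 and 58 counts in normoxia (0.386, 0.391, 0.310 and 0.480 CPM) and 18, 14, 38 and 33 counts in hypoxia (0.197, 0.181, 0.393 and 0.492 CPM). HCT116 stood at 14.3, 15.3 and 15.4 CPM in normoxia and at 18.8, 17.8 and 16.8 CPM in hypoxia. No library of either line came near the range of the other. The level in PC3 was 38.5-fold lower at normoxia (log2 difference -5.27, SE 0.13, adjusted p = 9.34e-10) and 56.8-fold lower at hypoxia (-5.83, SE 0.27, adjusted p = 2e-08, both edgeR's quasi-likelihood test). Its log2 difference at normoxia was the 436th lowest of 15206. For 82.9% of the genes at normoxia and 78.1% at hypoxia the libraries of the lines did not overlap, as was so for NDRG1, NDRG2 and NDRG3 in both conditions.

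In HCT116, NDRG2 was the only one of the 3 members tested that passed the threshold, against 25.9% of all genes tested in that line. It rose 1.20-fold in hypoxia, a log2 change of 0.27 (SE 0.08, 95% interval 0.10 to 0.43, adjusted p = 0.0251, edgeR's quasi-likelihood test). The lowest hypoxic library (16.8 CPM) lay above the highest normoxic one (15.4 CPM), as did those of 42.5% of all genes in one direction or the other. The call depended on the setting. It was lost in 4 of the 6 fits that left out 1 library, with an adjusted p of 0.103 without normoxia library 1, 0.0816 without hypoxia library 1, 0.0665 without normoxia library 2 and 0.0578 without hypoxia library 2. Scaling to total counts alone gave 0.17 (adjusted p = 0.113) and a single edgeR fit over all 14 libraries gave 0.25 (adjusted p = 0.434).

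In PC3 NDRG2 had few counts and a wide interval for its hypoxia change, which stood at -0.32 on the log2 scale (SE 0.34, 95% interval -1.09 to 0.45, adjusted p = 0.59, edgeR's quasi-likelihood test). The 2 lowest values belonged to hypoxic libraries numbered 1 and 2, and the 2 other hypoxic libraries lay within or above the normoxic range. With 1 library left out the value ran from -0.59 (without hypoxia library 4) to -0.13 (without hypoxia library 2), without passing in any of the 8 fits. These libraries do not resolve a change within that interval. The hypoxia change of NDRG2 differed between the lines by -0.58 (SE 0.31, adjusted p = 0.378 in the edgeR interaction test).

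NDRG3, the member with oxygen-dependent protein stability, varied little between replicates, and its RNA differed little between the conditions. PC3 stood at 90.2, 91.7, 86.4 and 95.7 CPM in normoxia and at 97.7, 105.4, 95.3 and 107.4 CPM in hypoxia. HCT116 stood at 49.3, 51.7 and 49.6 CPM in normoxia and at 46.4, 47.6 and 46.7 CPM in hypoxia. In PC3 the groups overlapped only between 95.3 and 95.7 CPM (20.9% of all genes did not overlap). In HCT116 every hypoxic library lay below every normoxic one, and 42.5% of all genes did not overlap there in either direction.

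The log2 change of NDRG3 in PC3 was 0.16 (SE 0.06, 95% interval 0.02 to 0.30), and it did not pass edgeR's quasi-likelihood test (adjusted p = 0.134). Of the members tested in PC3 (NDRG2, NDRG3 and NDRG4), 0 of 3 passed, with 11.3% of all genes. Of these 3, 1 (NDRG3) had an unadjusted p under 0.05 in edgeR, and DESeq2 called 0. Same-numbered PC3 libraries deviated together from their group means. With the replicate number as a block, NDRG3 rose by the same 0.16 with an SE of 0.04 and an adjusted p of 0.0333, while 28.5% of all genes passed in that fit. The size of the change depended on the scaling, at 0.12 with upper-quartile scaling (adjusted p = 0.253, edgeR) and 0.054 with total counts only (adjusted p = 0.582, edgeR), without the block in either. Hypoxic NDRG3 was higher in 4 of 4 numbered pairs, with ratios of 1.08, 1.15, 1.10 and 1.12.

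In HCT116 the log2 change of NDRG3 was -0.08 (SE 0.06, 95% interval -0.21 to 0.05, adjusted p = 0.342, edgeR's quasi-likelihood test). The ratios by number were 0.942, 0.919 and 0.942, although it is not known whether the HCT116 numbers mark paired cultures. The difference between the lines in the NDRG3 change was 0.25 (SE 0.09, 95% interval 0.07 to 0.44). It did not pass in edgeR's interaction test (adjusted p = 0.15, with 0.0565 under the replicate block), where 0 of 3 members and 2.32% of 15493 genes passed and 1 member, NDRG3, had an unadjusted p under 0.05. DESeq2 gave 0.27 and called it (adjusted p = 0.03). Between the lines themselves the difference was clear. NDRG3 was 1.79-fold higher in PC3 at normoxia (log2 difference 0.84, SE 0.05, adjusted p = 3.75e-07) and 2.17-fold higher at hypoxia (1.12, SE 0.08, adjusted p = 4.93e-07, both edgeR's quasi-likelihood test).

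NDRG4 was low in both lines and did not separate any groups. PC3 held 5.99, 5.16, 5.24 and 5.23 CPM in normoxia and 5.47, 5.96, 6.35 and 5.97 CPM in hypoxia. HCT116 held 5.26, 6.77 and 5.74 CPM in normoxia and 5.17, 7.21 and 5.53 CPM in hypoxia. The libraries of all 4 groups overlapped, and the highest values in each HCT116 condition were those of libraries numbered 2.

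The log2 change of NDRG4 in hypoxia was 0.14 in PC3 (SE 0.10, 95% interval -0.08 to 0.35, adjusted p = 0.39, and 0.034 with total counts only) and 0.03 in HCT116 (SE 0.14, 95% interval -0.28 to 0.33, adjusted p = 0.905, both edgeR's quasi-likelihood test). Between the lines it was -0.15 at normoxia (SE 0.12, adjusted p = 0.256) and -0.01 at hypoxia (SE 0.14, 95% interval -0.33 to 0.32, adjusted p = 0.974, same test). These intervals bound any change without showing that there was none. NDRG4 was the one member tested that passed in no comparison.

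**Figure D2:**
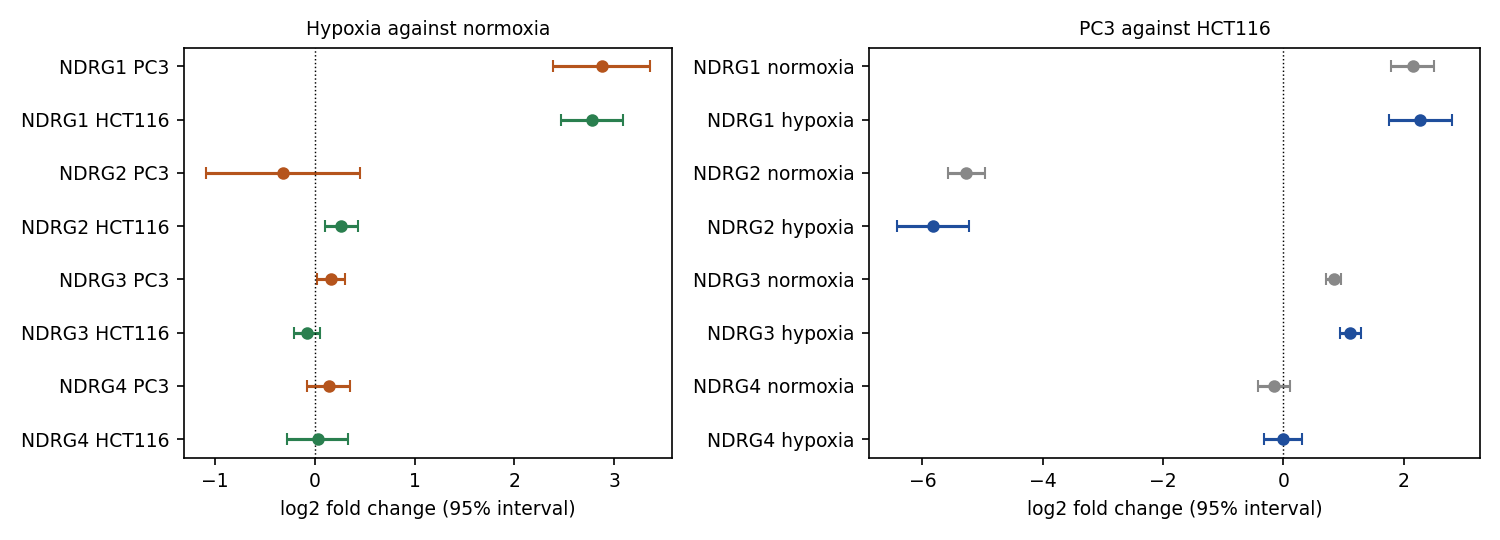
Log2 fold change of each NDRG gene between hypoxia and normoxia in each line (left, orange PC3 and green HCT116) and between PC3 and HCT116 in each condition (right, grey normoxia and blue hypoxia), with 95% intervals from edgeR. NDRG1 lies near 2.8 in both lines on the left, while the other members lie between -0.32 and 0.27, and NDRG2 lies at -5.27 and -5.83 on the right.

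Levels of different members can be set side by side only per length, so CPM were divided by the length of the exons in kilobases. With all annotated exons counted (12002, 7550, 3260 and 9647 bases for NDRG1 to NDRG4), NDRG1 and NDRG3 were level in normoxic PC3, at 28.8 ± 6.05 and 27.9 ± 1.19 CPM per kb (SD, n = 4), a difference within the spread of the libraries at this length. In hypoxic PC3 they stood at 211 ± 57.1 and 31.1 CPM per kb. In HCT116, NDRG3 led in normoxia with 15.4 CPM per kb to 6.42 for NDRG1, and NDRG1 led in hypoxia with 43.6 ± 10.1 CPM per kb (SD, n = 3) to 14.4 for NDRG3. NDRG2 and NDRG4 were at 1.98 and 0.614 CPM per kb in normoxic HCT116 and at 0.0519 and 0.561 CPM per kb in normoxic PC3, so the order of these members was opposite in the lines.

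The length matters for this order. With the longest transcript as the length (3983, 2978, 2978 and 5116 bases), NDRG1 stood above NDRG3 in both lines in normoxia, at 86.8 against 30.6 CPM per kb in PC3 and 19.3 against 16.9 CPM per kb in HCT116. As a share of the family's CPM per kb over all exons, NDRG1 went from 49.8% to 86.5% in PC3 and from 26.3% to 71.0% in HCT116. By the longest transcript it went from 72.8% to 94.5% and from 45.6% to 84.8%. NDRG3 gave up most of the remainder, from 49.1% to 13.2% in PC3 and from 63.1% to 24.0% in HCT116 over all exons, although its own level moved little. Among all genes with counts and a gene model, NDRG1 ranked 1557 of 17311 per kb in normoxic PC3 and 109 of 16975 in hypoxic PC3, and 5475 of 16290 and 1042 of 16326 in HCT116. By the longest transcript these ranks were 589, 37, 3270.0 and 463.

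**Figure D3:**
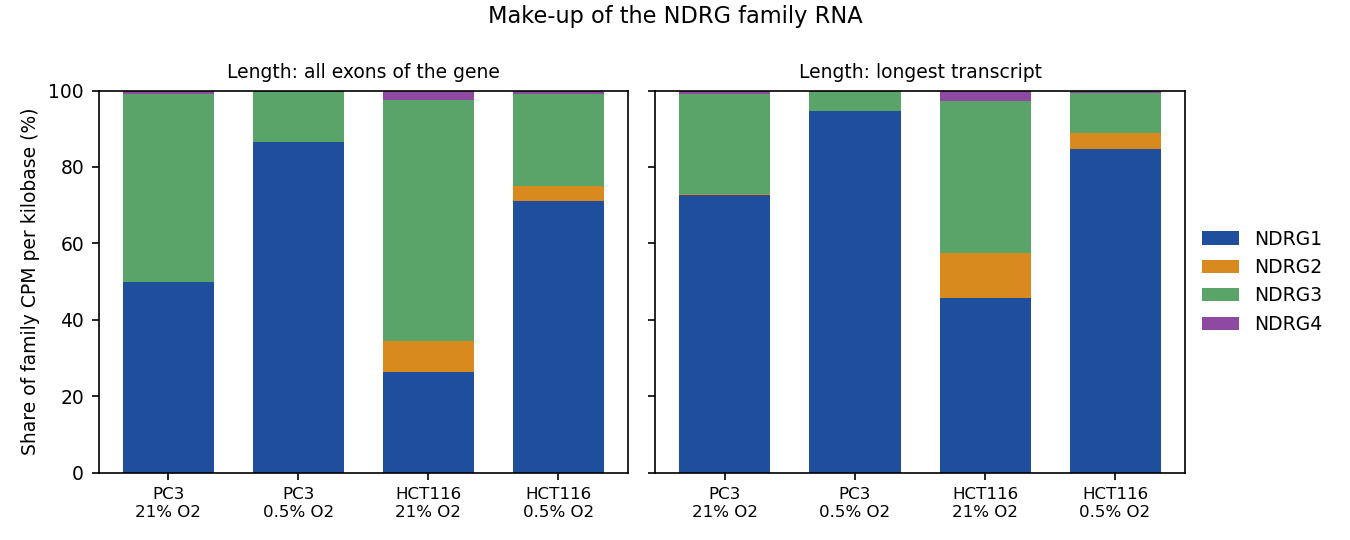
Share of each member in the summed CPM per kilobase of the 4 NDRG genes, as the mean over the libraries of each group, with the length taken over all exons (left) or as the longest transcript (right). NDRG1 takes 86.5% (left) or 94.5% (right) in hypoxic PC3, and the standing of NDRG1 against NDRG3 in normoxia depends on the length used, level (left) or apart (right) in PC3 and in opposite order in HCT116.

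Among the genes that sense oxygen upstream of NDRG1 and NDRG3, HIF1A, EGLN1 and EGLN3 passed in the same direction in both lines. This list and those below were chosen with earlier results known, so their calls describe these libraries and are not independent support. Of 7 listed, 2 rose and 1 fell in PC3, where 11.3% of all genes passed. In HCT116, where 25.9% passed, 3 rose and 1 fell. The median log2 change of the 7 was 0.09 in PC3 and 0.01 in HCT116, against 0.00 over all genes in each. HIF1A, the oxygen-labile subunit, fell by 0.53 on the log2 scale in PC3 (SE 0.09, adjusted p = 0.0063) and by 0.63 in HCT116 (SE 0.07, adjusted p = 4.86e-05, edgeR's quasi-likelihood test here and in the next paragraphs). EGLN1, a prolyl hydroxylase that acts on HIF and is known to bind NDRG3, rose by 1.22 in PC3 (adjusted p = 0.000152) and by 1.56 in HCT116 (adjusted p = 1.63e-08, edgeR). EGLN3, a related hydroxylase, rose by 1.88 (adjusted p = 0.00862) and 2.62 (adjusted p = 3.4e-09, edgeR). EPAS1, which encodes the other main HIF alpha subunit, rose by 0.37 in HCT116 (adjusted p = 0.0159, but 0.061 without hypoxia library 2, edgeR). In PC3 it stood 0.31 higher (adjusted p = 0.156, edgeR), which passed with the replicate block (adjusted p = 0.00821). ARNT, EGLN2 and VHL passed in neither line.

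Of 5 other transcription regulators tied to the family, MYCN had 0 counts throughout. Of the 4 tested in PC3, EGR1 had the lowest adjusted p (0.0576, edgeR), and 1 of the 3 tested in HCT116 passed. Of all genes, 11.3% passed in PC3 and 25.9% in HCT116. MYC rose there by 0.23 (adjusted p = 0.0231, edgeR), and the call was lost in 5 of the 6 fits that left out 1 library, all but that without normoxia library 1 (adjusted p up to 0.13). EGR1, an immediate early factor, stood 1.20 lower in hypoxic PC3 on the log2 scale (SE 0.35), which passed with the replicate block (adjusted p = 0.00388, edgeR). Its level in PC3 was low, at 1.04 to 2.29 CPM in normoxia and 0.362 to 0.886 CPM in hypoxia. These are 107 to 273 and 35 to 81 counts per library. The median log2 change of the tested regulators was -0.09 in PC3 and 0.15 in HCT116.

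Among 5 kinases that phosphorylate NDRG proteins, 1 passed in each line, near the share of all genes that passed (11.3% in PC3 and 25.9% in HCT116). SGK1 rose by 0.58 in HCT116 (SE 0.13, adjusted p = 0.0082, edgeR) and stood 0.21 higher in PC3 (adjusted p = 0.49, or 0.0483 with the replicate block). GSK3B rose by 0.25 in PC3 (SE 0.07, adjusted p = 0.0434, edgeR), a call lost in 7 of the 8 fits that left out 1 library (adjusted p up to 0.148) and kept without hypoxia library 4. It stood 0.19 higher in HCT116 (adjusted p = 0.0508). SGK3 stood 0.21 lower in PC3 (adjusted p = 0.093, or 0.0494 with the block, edgeR). At normoxia SGK1 was 5.15-fold higher in PC3 than in HCT116 (adjusted p = 2.6e-06) and SGK3 was 2.47-fold lower (adjusted p = 4.16e-08, edgeR), in a comparison where most genes differed.

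Of 7 binding partners and pathway proteins, 6 tested in PC3 and 7 in HCT116, the same 2 rose in each line. Of all genes, 11.3% passed in PC3 and 25.9% in HCT116. CDH1 encodes E-cadherin, whose recycling NDRG1 is known to aid. It rose by 0.34 in PC3 (SE 0.08, adjusted p = 0.0206, edgeR), a call lost without normoxia library 2, 3 or 4 or hypoxia library 2 (adjusted p from 0.0539 to 0.0829), and by 0.80 in HCT116 (SE 0.08, adjusted p = 5.59e-05, edgeR). Its normoxic level was 11.1-fold higher in PC3, at 328 against 29.3 CPM. LDHA, the lactate dehydrogenase subunit that makes the lactate bound by NDRG3, rose by 0.85 in PC3 (adjusted p = 0.00232) and by 1.66 in HCT116 (adjusted p = 4.22e-08, edgeR). RAB4A, LRP6 and PRMT5 passed in neither line by edgeR, and BVES was tested only in HCT116. CTNNB1 did not pass in PC3 and stood 0.24 higher in HCT116 (adjusted p = 0.0544, or 0.0307 with the replicate block, edgeR).

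Over the 24 listed genes, 22 were tested in each line. In PC3, where 11.3% of all genes passed, 5 rose and 1 fell. In HCT116, where 25.9% passed, 7 rose and 1 fell. Because the lists were chosen with earlier results of these data known, these counts are a description. With the replicate block, 7 rose and 3 fell in PC3, where 28.5% of all genes passed. In HCT116, where 26.6% passed with the block, 8 rose and 1 fell. By edgeR's interaction test the change of 1 gene differed between the lines. LDHA rose less in PC3 (log2 difference -0.80, SE 0.15, adjusted p = 0.0125, edgeR), and it passed in each of the 14 fits that left out 1 library. The number of listed genes whose change differed was 1 in those fits, apart from 3 without PC3 hypoxia library 4. With the block it was 4, namely LDHA with CDH1, EGLN3 and EGR1.

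**Figure D4:**
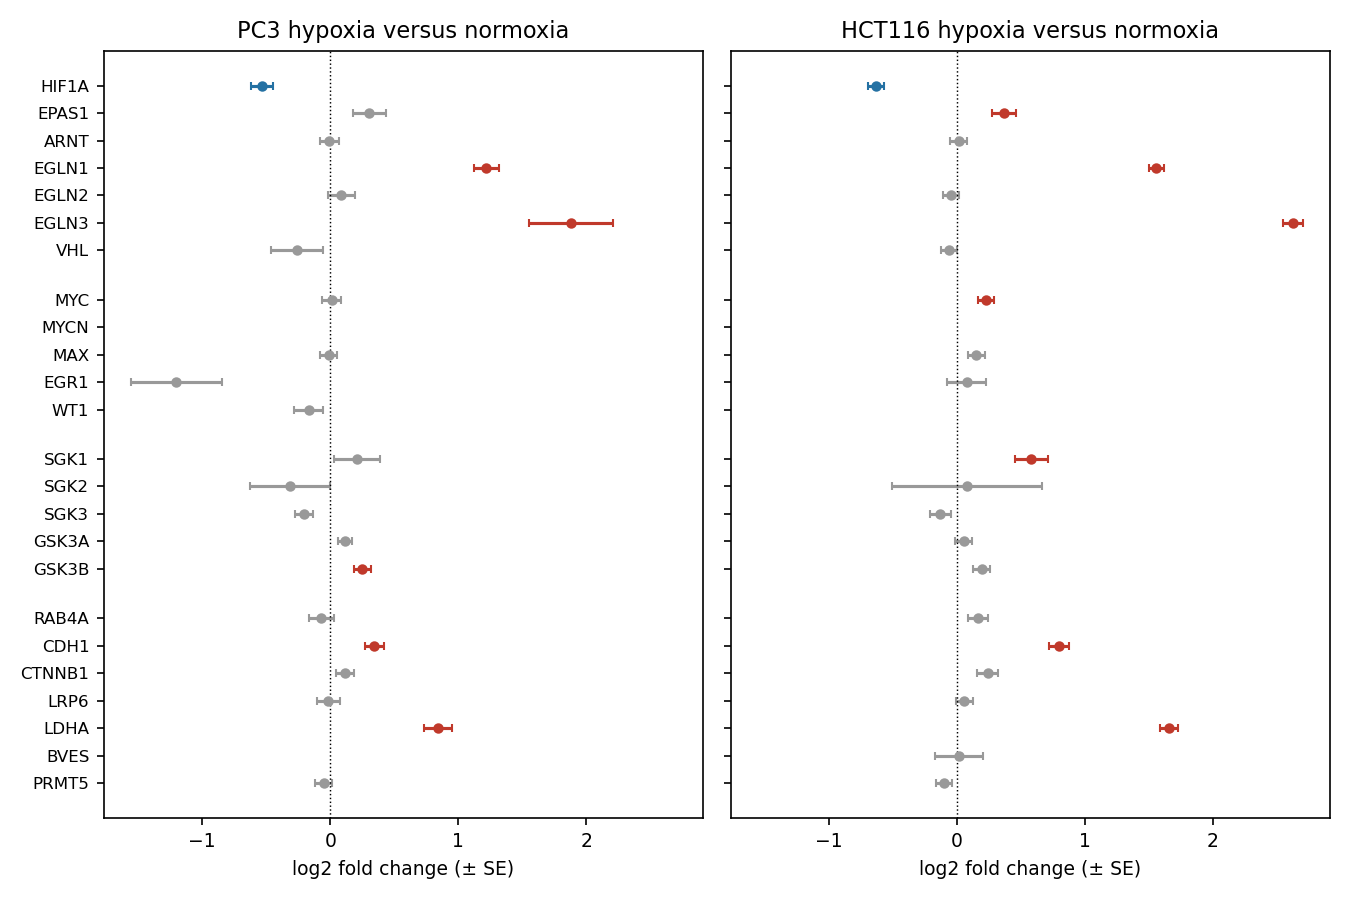
Log2 fold change between hypoxia and normoxia, with its SE, of the 24 listed genes in PC3 (left) and HCT116 (right), grouped from top to bottom as oxygen sensing, other transcription regulators, kinases and partners. Red marks genes that rose and blue genes that fell past an adjusted p of 0.05 in edgeR, grey marks the others, and genes too low to test have no point. HIF1A falls and EGLN1, EGLN3, CDH1 and LDHA rise in both lines.

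The nearest gene on each side of a member with any count was also read. WISP1, which encodes a secreted CCN protein, ends 5484 bases from NDRG1 in the coordinates of GRCh37 and lies on the opposite strand. It went from 0.389 ± 0.0809 CPM in normoxic PC3 to 2.59 ± 0.112 CPM in hypoxic PC3 (SD, n = 4). The groups did not overlap, as was so for 20.9% of all genes. It rose by 2.74 on the log2 scale (SE 0.19, adjusted p = 0.000126, edgeR's quasi-likelihood test), on 36 to 50 and 184 to 239 counts per library. In HCT116 it had 0 to 8 counts per library and was not tested. ST3GAL1, a sialyltransferase 152825 bases to the other side, rose by 0.36 in PC3 (adjusted p = 0.0146, edgeR), which was lost without normoxia library 2 or 3 or hypoxia library 2 (adjusted p up to 0.066), and stood 0.19 higher in HCT116 (adjusted p = 0.0682).

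The neighbours of the other members were read in the same way. SETD6, a lysine methyltransferase 1850 bases from NDRG4, fell by 0.45 in PC3 (adjusted p = 0.0411, edgeR, and up to 0.13 in the 6 of 8 fits that lost the call, all but those without hypoxia library 3 or 4) and by 0.37 in HCT116 (adjusted p = 0.0101, edgeR). DSN1, a kinetochore gene 5700.0 bases from NDRG3, fell by 0.22 in HCT116 (adjusted p = 0.0413, but 0.0591 with the replicate block, edgeR). The zinc finger gene ZNF219 beside NDRG2 rose by 0.23 there (adjusted p = 0.0446, edgeR). Both calls were lost in 5 of 6 fits that left out 1 library, all but that without normoxia library 1 for DSN1 and hypoxia library 1 for ZNF219 (adjusted p up to 0.133 and 0.153). GINS3, on the other side of NDRG4, passed in neither line, and SLC39A2 and SLA2 were too low to test.

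The genes whose log2 CPM ran most alike with each member over the 14 libraries are given as a description. The 14 points share 2 lines and 2 conditions, so that any gene with the same differences between groups scores high. The genes named depend on the measure. For NDRG1 they were DUSP6, HERC3 and HILPDA by Pearson's r (0.982, 0.982 and 0.977 over 12637 genes). By Spearman's rho they were MAP2K1, NPTXR and BHLHE40 (0.965, 0.965 and 0.956). For NDRG3 and NDRG4 the top genes by the 2 measures did not overlap either, and those given below are by Pearson's r. HILPDA encodes a lipid droplet protein known as a HIF target, and its mean CPM went from 30.9 to 78.1 in PC3 and from 19.1 to 36.4 in HCT116. For NDRG2 they included MICB and NEIL2, each lower in PC3, with r = 0.997 for MICB, which stood at 0.442 CPM in normoxic PC3 and 7.19 CPM in normoxic HCT116. For NDRG3 they were RPS6KA3, PI4KB and CCDC69, with r from 0.996 to 0.997, each higher in PC3. For NDRG4 the highest r was only 0.771, for WDR48. Among members, NDRG2 and NDRG3 ran opposite to each other (r = -0.98, Spearman's rho -0.77), which the difference between the lines in each would give.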

How the data were processed

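Polyadenylated RNA of PC3 and HCT116 cells was sequenced by the authors in paired ends. Per the labels and methods, they aligned reads with HISAT2 (2.05), set ERCC spike-in reads aside, aligned the rest to GRCh37 and counted reads per RefSeq gene with HTSeq (0.5.4p3, in the submitters' processing notes). The values deposited by the authors are these raw counts, 1 per gene symbol and library, without normalisation. The strandedness and the RefSeq release are not given in the sources used here. The spike-in counts were not used here, so a change in total RNA per cell is not seen.

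The members and all gene lists were chosen with earlier results of these data known. In each comparison edgeR (4.0.16, in R 4.3.3) was fitted to the groups compared: filterByExpr (minimum count 10), TMM scaling, the quasi-likelihood test over all genes and Benjamini-Hochberg adjustment (threshold 0.05). The difference between the lines in the hypoxia change was the interaction over 14 libraries. Log2 fold changes are edgeR's, with 95% intervals from its residual degrees of freedom. CPM used TMM factors over all 14 libraries. Lengths came from GRCh37 gene models, which 93.2% of symbols matched. RefSeq promoters (GRCh38.p14) were used for sequence only. The named genes were the members, 24 listed genes, the nearest gene with counts on each side of a member, and the 3 genes most correlated with each member among those with a mean of at least 1 CPM. A few named items are not reported here, and list counts leave them out.

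Same-numbered PC3 libraries deviated together (correlations of 0.832, 0.523, 0.345 and 0.413), so the blocked value is printed where it changes a call in PC3. Those of HCT116 correlated at 0.0664, 0.373 and -0.08, which does not settle whether they were paired. As alternatives, the counts were scaled by total counts only, by upper quartile or by median of ratios, and the fits were repeated with DESeq2 (1.42.0), no filter on low counts, robust spread (interaction only), 1 fit over all libraries, the replicate block and each library left out. Thinning to equal depth and leaving out the PC3 libraries numbered 1 were added after the data were seen. The procedure was tested on simulated data with independent libraries, which leave out the shared deviation of same-numbered PC3 libraries. Library totals ran from 71228454 to 150630928 counts, and counting error is largest for NDRG2 in PC3.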

Additional observations from a re-analysis of the deposited data

Results flagged for a closer look

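In the 4 normoxic PC3 libraries, NDRG4 in library 1 stood at 5.99 CPM, far from the other 3 at 5.16 to 5.24 CPM by Dixon's test. Of 8 groups of 4 libraries examined, chance alone would give 0.4 such libraries (about 1 in 20). Without that library the NDRG4 change in PC3 was 0.20 on the log2 scale (adjusted p = 0.209 by edgeR), the highest of the values with 1 library left out.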

How the results depend on the processing

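Directions and calls of NDRG1, of NDRG2 and NDRG3 between the lines, and of NDRG2 in PC3 were the same in every alternative run. The exception was the difference between the lines in the NDRG1 hypoxia change, which ran from -0.073 to 0.30 with 1 library left out. NDRG2 in PC3 stood at -0.59 to -0.13 with 1 library left out. NDRG2 in HCT116 lost its call with total counts only (0.17), 1 fit over all libraries (0.25) and thinned libraries (0.25, adjusted p = 0.0634, edgeR), and ran from 0.22 to 0.31 with 1 library left out, so that the number of members past the threshold there went from 1 to 0 in each and was 0 or 1 over the libraries left out. The replicate block called NDRG3 in PC3 (0.16), which took that number from 0 to 1 and changed no other member's call. DESeq2 called the difference between the lines in the NDRG3 hypoxia change (0.27), which took the number of members called in that comparison from 0 to 1. Near 0, the sign of NDRG4 turned: in HCT116 with total counts only (-0.065) and over libraries left out (-0.13 to 0.12), and between the lines at hypoxia with median-of-ratios scaling (0.0037), total counts (0.048), DESeq2 (0.0037), the replicate block (0.0055), without the PC3 libraries numbered 1 (0.036) and over libraries left out (-0.10 to 0.15). Over all genes, 1620.0 were called in PC3, against 2601 by DESeq2, 2465 in 1 fit over all libraries, 4074 with the block, and 553 to 2085 with 1 library left out. In HCT116 3658 were called, against 1733 in 1 fit over all libraries. The difference between the lines in the hypoxia change was called for 359 genes. That number was 974 by DESeq2, 1307 with the block and 177 to 717 with 1 library left out. Total-count scaling moved the median log2 change to -0.10 in PC3 and -0.09 in HCT116 and the higher and lower calls from 863 and 757 to 562 and 1733 in PC3, and from 2061 and 1597 to 1286 and 3146 in HCT116. Upper-quartile scaling gave 681 and 1048 in PC3. The causes were not tested. NDRG2 in PC3 rests on 14 to 58 counts per library.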
